A study of Mus musculus with 25 samples.

Results

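Transplanted mammary tumors of the 2208L model were compared with those of the AT3 model, both from animals given vehicle alone. The comparison rests on the 6 of the series' 25 libraries whose labels name one of these models and vehicle, 3 of 2208L and 3 of AT3. 2208L tumors grew orthotopically in female Balb/c mice and are labelled Responder. AT3 tumors grew orthotopically in female C57BL/6 mice and are labelled Nonresponder. Recipients were 4 to 5 weeks old at transplantation and received vehicle daily, and RNA came from whole tumor pieces sequenced as stranded polyA libraries. By general knowledge of these lines, which the labels do not give, 2208L is described as derived from a Trp53-null mammary tumor in Balb/c and AT3 from an MMTV-PyMT tumor in C57BL/6. Host strain and tumor model therefore changed together and cannot be told apart. The series' other 19 libraries comprise both models under the splicing modulator H3B-8800 (3 of 2208L, 2 of AT3) and the T11 and PyMT-M models.

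Carcinomas can keep an epithelial program, in which E-cadherin, claudins and desmosomes join the cells, or shift towards a mesenchymal one driven by factors such as Zeb1, Snail and Twist, which repress epithelial genes by binding E-boxes. The splicing regulators Esrp1 and Esrp2 are part of the epithelial program. Whole tumors also hold stroma, vessels and leukocytes, so that a lower value may come from fewer cells of a type or from less RNA per cell; these cannot be told apart in bulk RNA.

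Gene levels are spliced reads summed over a gene's introns and scaled to library size by TMM (CPM), so a gene with more introns gathers more reads and levels are not compared between genes. Spliced reads numbered 9820825 to 11038943 in the 2208L libraries and 10111266 to 11355622 in the AT3 libraries. 3 libraries stood apart from their groups in the summed level of a marker list. The summed level of the 18 skeletal muscle genes was 5592 CPM in 2208L replicate 1, 22.1 and 54.2 CPM in its other replicates, and 43.1 to 50 CPM in AT3. The B cell genes summed to 3.32 to 6.85 CPM in 2208L, and to 83.3 CPM in AT3 replicate 2 against 1.89 and 1.9 CPM in the other AT3 replicates. In 2208L replicate 2 the fibroblast and collagen genes summed to 21121 CPM, against 7571 and 3943 CPM in replicates 1 and 3 of 2208L and 9586 to 14379 CPM in AT3, and the macrophage genes to 7973 CPM, against 3981 and 4009 CPM in 2208L and 2983 to 4305 CPM in AT3. Counts that depend on these libraries are given without them, where 2208L replicate 1 and AT3 replicate 2 left out together are called the muscle and B cell libraries.

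The models differed over much of the transcriptome. Of 13001 genes tested, 3187 (24.5%) were higher and 2692 (20.7%) lower in 2208L, 5879 or 45.2% in all (edgeR quasi-likelihood test, Benjamini-Hochberg adjusted p under 0.05). In 3979 genes (30.6%) every 2208L library lay above every AT3 library, and in 3660 (28.2%) every one lay below. The median log2 fold change was 0.02. The counts of each gene list below are to be set against these shares. The labels do not say that replicates came from separate mice, so p-values measure the spread between these libraries. Without the muscle and B cell libraries, 4468 genes were called.

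The clearest group was the epithelial junction genes, of which 22 of 23 tested were higher in 2208L, none was lower and 1 did not pass; the list has 28 members, of which 5 have no listed intron. Epcam, an epithelial cell adhesion molecule, had 1441, 1072 and 1321 CPM in the 2208L libraries, against 0.159, 1.84 and 0 CPM in the AT3 libraries. Cdh1, which encodes E-cadherin, had 186, 163 and 182 CPM in the 2208L libraries, against 1.27, 1.75 and 1.44 CPM in the AT3 libraries. Neither gene's groups overlapped, and the means differed 1920.4-fold for Epcam and 119-fold for Cdh1 (log2 fold change 6.89 ± 0.38 SE, adjusted p = 6.17e-12). Dsp, the desmosomal plaque protein desmoplakin, had 122, 116 and 139 CPM in the 2208L libraries, against 0, 0 and 0 CPM in the AT3 libraries. It was at least 1461-fold higher in 2208L, against a floor of 3 reads over the AT3 group (adjusted p = 3.87e-11). The tight junction claudin Cldn7 was 5703-fold higher (95% counting interval 1023 to 225292) (adjusted p = 1.32e-12). Ocln, occludin, was the exception, with 16.2 ± 4.36 CPM in 2208L and 12.2 ± 3.86 CPM in AT3 (SD, n = 3 each) and overlapping groups (log2 fold change 0.40 ± 0.32 SE, adjusted p = 0.319). The list's median log2 fold change was 6.50, or 5.95 with genes at 0 in a group set to their bound.

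Promoters of 3 of these genes are shown because Snail and Zeb1, of the repressors named above, read the E-box CAGGTG, or CACCTG on the other strand. Both words are in capitals in the RefSeq windows below (build GRCm38.p6, plus strand, from 250 bases before to 50 bases after the start).
Epcam, chr17:87635729-87636028: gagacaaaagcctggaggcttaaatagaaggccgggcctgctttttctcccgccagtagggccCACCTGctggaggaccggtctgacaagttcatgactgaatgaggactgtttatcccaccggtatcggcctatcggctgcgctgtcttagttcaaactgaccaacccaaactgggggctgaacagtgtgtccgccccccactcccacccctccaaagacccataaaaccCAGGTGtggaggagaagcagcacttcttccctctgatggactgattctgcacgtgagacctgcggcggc
Cldn7, chr11:69965171-69965470: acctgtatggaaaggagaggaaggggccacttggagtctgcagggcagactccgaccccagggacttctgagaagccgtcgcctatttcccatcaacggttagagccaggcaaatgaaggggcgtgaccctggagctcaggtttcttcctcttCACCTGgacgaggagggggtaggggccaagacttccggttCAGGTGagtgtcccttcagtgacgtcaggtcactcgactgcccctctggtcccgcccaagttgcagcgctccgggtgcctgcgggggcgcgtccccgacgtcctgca
Dsp, chr13:38151044-38151343: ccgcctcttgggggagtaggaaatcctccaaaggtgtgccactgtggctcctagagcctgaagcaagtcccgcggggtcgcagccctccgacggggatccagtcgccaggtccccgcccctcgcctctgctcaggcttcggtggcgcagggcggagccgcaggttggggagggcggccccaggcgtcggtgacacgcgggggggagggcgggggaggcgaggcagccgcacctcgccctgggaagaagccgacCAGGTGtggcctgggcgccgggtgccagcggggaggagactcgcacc
Epcam and Cldn7 hold 2 E-boxes each and Dsp 1. An E-box was found in 10 of the 12 junction gene promoters at hand, against 1821 of 9918 promoters of all tested genes, or 18.4%. The Grainyhead-like word AACCGGTT was in none of those 12 and in 25 of the 9918. A match of letters is a description of the window and not evidence of binding.

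Keratins and transcription factors of the epithelial program were also higher. Among simple and luminal keratins, 4 of 6 were higher and none lower. Krt8 had 1201, 898 and 1334 CPM in the 2208L libraries, against 25.1, 14.3 and 19.5 CPM in the AT3 libraries, and Krt18 averaged 1278 ± 314 CPM in 2208L and 167 ± 24 CPM in AT3 (SD, n = 3 each). Both rose in 2208L with groups that did not overlap (log2 fold change 5.87 ± 0.38 SE, adjusted p = 8.29e-11 for Krt8). Of 9 basal and stratified keratins 6 were higher and none lower, 4 without the muscle and B cell libraries, with summed levels of 34 to 55.2 CPM in 2208L, against 0.901 to 1.75 CPM in AT3. Krt15 had 25.3, 9.83 and 19.3 CPM in the 2208L libraries, against 0.159, 0 and 0 CPM in the AT3 libraries. Krt5, another basal keratin, was at 0 in every 2208L library and at 0.263 CPM or less in AT3. Of 19 basal and myoepithelial genes 13 were higher and 1, Egfr, was lower (3.3 CPM in 2208L, 16.7 CPM in AT3).

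Of 21 epithelial transcription factors 18 were higher and none lower. Tfap2c, an AP-2 factor, had 219, 168 and 249.9 CPM in the 2208L libraries, against 0, 0 and 0 CPM in the AT3 libraries and was at least 2455-fold higher (adjusted p = 1.66e-11). Grhl2, a Grainyhead-like activator of junction genes, had 61.5, 58 and 72.7 CPM in the 2208L libraries, against 0.317, 0 and 0.0901 CPM in the AT3 libraries (log2 fold change 8.73 ± 0.49 SE, adjusted p = 8.31e-12). Elf5, a factor of alveolar progenitors, was 980.3-fold higher (95% counting interval 271 to 8101), and Sox10, a factor of neural crest and mammary stem-like cells, was 2792-fold higher (95% counting interval 501 to 110310.0). The splicing regulator Esrp1 had 164, 169 and 212 CPM in the 2208L libraries, against 0, 0 and 0 CPM in the AT3 libraries, at least 2119.8-fold higher in 2208L (adjusted p = 2.2e-12). Esrp2 followed it, with 61.6 ± 8.25 CPM in 2208L and 0.222 ± 0.159 CPM in AT3 (SD, n = 3 each). In the list of splicing regulators of either program, 3 of 14 were higher (Esrp1, Esrp2 and Rbm47) and 2 lower, shares of 21.4% and 14.3% that lie near or below those of all genes.

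**Figure D1:**
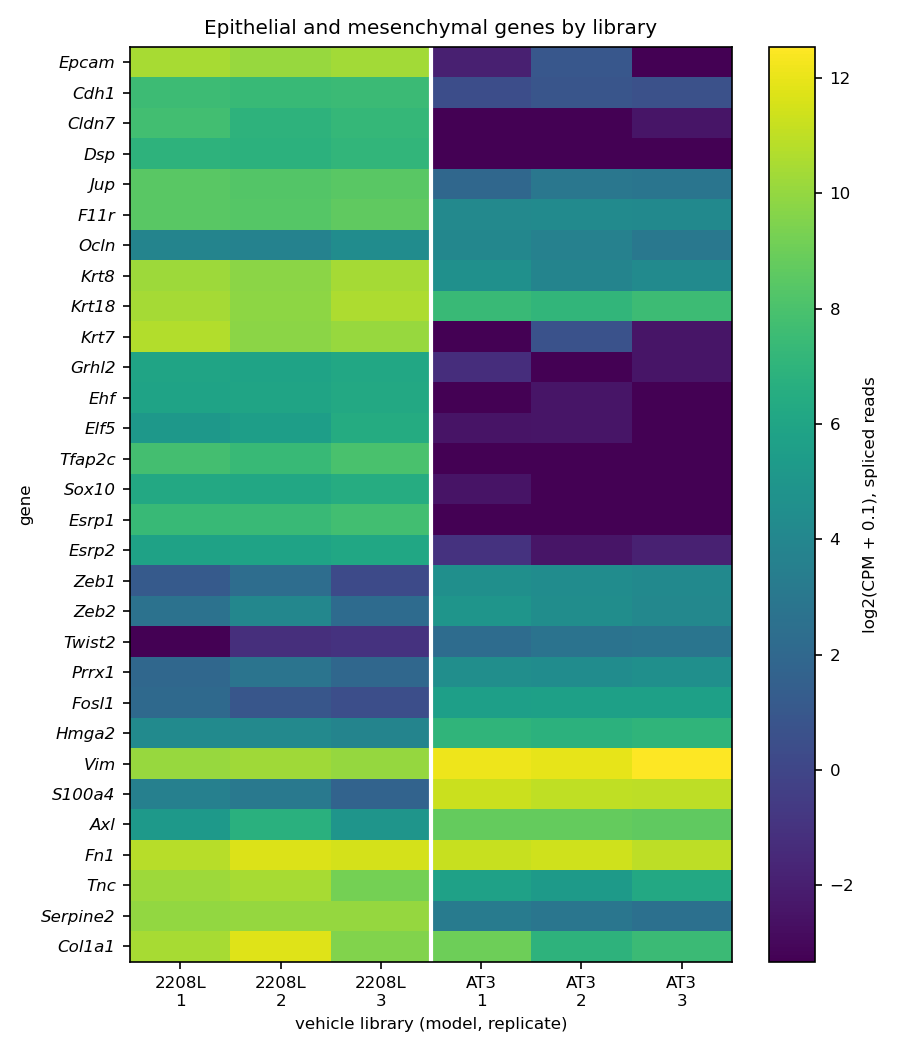
Level of 30 epithelial and mesenchymal genes in each vehicle library, as log2 of CPM plus 0.1 (color), 2208L at left and AT3 at right. Epithelial genes at the top are high in all 2208L libraries except Ocln, which was not called, while Fn1, Tnc, Serpine2 and Col1a1 at the bottom do not follow Vim and S100a4.

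Milk and secretory genes were high in 2208L: 9 of 14 milk protein genes rose and none fell. Wfdc18, a mammary whey acidic protein family member, had 5131, 3310.2 and 4972 CPM in the 2208L libraries, against 0.317, 0.0875 and 0.18 CPM in the AT3 libraries. Lcn2, the iron-carrier binding protein lipocalin-2, had 7609, 6389.9 and 8864 CPM in the 2208L libraries, against 9.68, 8.93 and 11.3 CPM in the AT3 libraries. These were 22923-fold and 765-fold higher (adjusted p = 2.07e-13 and adjusted p = 4.41e-06). The alpha-S1 casein Csn1s1 had 223, 169 and 164 CPM in the 2208L libraries, against 0, 0 and 0 CPM in the AT3 libraries. Of 26 genes of luminal differentiation and hormone response 17 were higher, among them the serine protease St14 (386 CPM in 2208L, 0.753 CPM in AT3), the progenitor marker Prom1 (156 CPM in 2208L, 0.234 CPM in AT3) and the receptor Erbb3 (291 CPM in 2208L, 0.877 CPM in AT3).

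Transcription factors of the epithelial-mesenchymal transition went the other way, with 10 of 16 lower in 2208L and 2 higher (Osr1 and Meox1). Without the muscle and B cell libraries 6 were lower. Fosl1, an AP-1 subunit, had 4.13, 1.76 and 1.31 CPM in the 2208L libraries, against 49.9, 51.5 and 51.3 CPM in the AT3 libraries. Zeb1, the E-box repressor, had 2.12, 5.04 and 1.11 CPM in the 2208L libraries, against 24, 20.7 and 18 CPM in the AT3 libraries (log2 fold change -2.90 ± 0.45 SE, adjusted p = 2.07e-05). Twist2 averaged 0.246 ± 0.216 CPM in 2208L and 6.09 ± 1.18 CPM in AT3 (SD, n = 3 each) and Hmga2, a chromatin architectural factor, 17 ± 2.54 CPM in 2208L and 129 ± 9.3 CPM in AT3. All 4 fell in 2208L without overlap. Snai1 (11.7 CPM in 2208L, 7.84 CPM in AT3; adjusted p = 0.0743) and Twist1 (7.48 CPM in 2208L, 7.71 CPM in AT3; adjusted p = 0.948) did not pass.

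Structural mesenchymal genes did not move as one. Of 29 tested, 8 were higher, 5 lower and 16 not called, near the shares of all genes. Vim, the intermediate filament vimentin, had 1087, 1218 and 1036 CPM in the 2208L libraries, against 4580.1, 3926 and 5957 CPM in the AT3 libraries. S100a4, a calcium-binding protein of motile cells, had 11.9, 8.4 and 3.22 CPM in the 2208L libraries, against 2466, 2084 and 2028 CPM in the AT3 libraries. Both fell, 4.33-fold for Vim and 279.9-fold for S100a4 (log2 fold change -8.13 ± 0.46 SE, adjusted p = 9.98e-12). The matrix protein tenascin C went up: Tnc had 1168, 1400.5 and 591 CPM in the 2208L libraries, against 54.3, 39.8 and 76.3 CPM in the AT3 libraries. Serpine2, a protease inhibitor, had 1007, 1032 and 1049 CPM in the 2208L libraries, against 9.76, 7.26 and 5.77 CPM in the AT3 libraries. Fn1, fibronectin, averaged 2734 ± 801 CPM in 2208L and 2359.7 ± 338 CPM in AT3 with overlapping groups (adjusted p = 0.701), and Cdh2, N-cadherin, averaged 27.9 ± 5.05 CPM in 2208L and 15.6 ± 2.3 CPM in AT3 (adjusted p = 0.153). Among 33 fibroblast and collagen genes, 14 were higher and 7 lower, and 11 higher and 11 lower without 2208L replicate 2. Col1a1 averaged 1893 ± 1425 CPM in 2208L and 274 ± 212 CPM in AT3, whereas Dcn, the proteoglycan decorin, averaged 61.5 ± 48.6 CPM in 2208L and 627 ± 100.4 CPM in AT3 (SD, n = 3 each). Col1a1 and Col1a2 rose, while Dcn and another fibrillar collagen, Col3a1 (2607 CPM in 2208L, 7342 CPM in AT3; adjusted p = 0.0279), fell. Of 11 pericyte and smooth muscle genes 7 were higher, among them Notch3 (49.8 CPM in 2208L, 3.88 CPM in AT3).

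In the growth factor list 15 of 41 were higher and 10 lower. Met, the hepatocyte growth factor receptor, is described below. Erbb2 averaged 135 ± 26.1 CPM in 2208L and 42.2 ± 7.62 CPM in AT3, and the receptor Axl 59.3 ± 43.5 CPM in 2208L and 431 ± 14.9 CPM in AT3 (SD, n = 3 each); Erbb2 rose and Axl fell (adjusted p = 7.85e-07 and adjusted p = 2.12e-06). Of 16 Notch genes 9 were higher and 3 lower, the 3 falls not called without the muscle and B cell libraries, with Notch1 at 65.2, 74 and 83.7 CPM in the 2208L libraries, against 3.89, 6.39 and 2.25 CPM in the AT3 libraries. Of 34 Wnt genes 16 were higher and 3 lower, and 5 were lower without 2208L replicate 2. Nkd2, an inhibitor of Wnt signalling, was 6700.1-fold higher (95% counting interval 2292 to 32492), and the Wnt antagonist Dkk2 was 73.6-fold lower in 2208L. TGF-beta and BMP genes were called in both directions, 14 of 34 higher and 8 lower.

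Cell cycle genes held a few large differences. Cdkn2a, the locus of p16 and p19Arf, had 69.4, 40.1 and 54.7 CPM in the 2208L libraries, against 0, 0 and 0.18 CPM in the AT3 libraries, and its neighbour Cdkn2b had 3.83, 1.93 and 2.71 CPM in the 2208L libraries, against 0, 0 and 0 CPM in the AT3 libraries. Cdkn2a was 945-fold higher (95% counting interval 261 to 7814) and Cdkn2b at least 32.4-fold higher in 2208L. Myc fell 5.86-fold, with 17.2, 11 and 11.7 CPM in the 2208L libraries, against 70.3, 70.3 and 93.2 CPM in the AT3 libraries (log2 fold change -2.55 ± 0.27 SE, adjusted p = 1.27e-07). Of 36 mitosis and replication genes none was higher and 7 were lower (19.4%, near the 20.7% of all genes). That count was 4 without 2208L replicate 2, 2208L replicate 3 or AT3 replicate 3, while a fit of the 6 vehicle libraries alone called 4 higher and 17 lower. Mcm2, Mcm3, Mcm4, Mcm5 and Mcm6, subunits of the replicative helicase, were among the 7. Of 31 p53 targets 9 were higher (29%) and 7 lower (22.6%), near the shares of all genes. Without the muscle and B cell libraries 5 were higher. Cdkn1a averaged 2.53 ± 1.24 CPM in 2208L and 4.99 ± 1.14 CPM in AT3 (adjusted p = 0.0651) and Trp53 itself 117 ± 10.3 CPM in 2208L and 139 ± 14.7 CPM in AT3 (adjusted p = 0.202), neither called. Spliced reads crossed every Trp53 intron in each library, 103 to 186 in 2208L and 126 to 283 in AT3. A spliced Trp53 transcript was therefore present in tumors of the line described as Trp53-null, and which cells made it was not tested. Relative to the gene's spliced reads, reads inside 4 of 7 tested introns were called, 2 higher and 2 lower in 2208L. Intron 1 held 698, 1131 and 1043 reads in 2208L, against 176, 275 and 130 in AT3. Intron 4, with an annotated exon inside, held 2, 6 and 4 reads in 2208L, against 62, 122 and 43 in AT3.

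Interferon-stimulated genes were higher in 2208L as a group, 22 of 34 with none lower. Without the muscle and B cell libraries the count was 11, none lower. Ifih1, the double-stranded RNA sensor MDA5, had 37.7, 38 and 35.6 CPM in the 2208L libraries, against 4.84, 5.86 and 5.68 CPM in the AT3 libraries. Irf7, a transcription factor of the interferon response, had 96.9, 72.7 and 84.2 CPM in the 2208L libraries, against 13.6, 13.5 and 22.1 CPM in the AT3 libraries. Both rose, 6.79-fold and 5.16-fold (adjusted p = 3.95e-07 and adjusted p = 5.26e-05). Of 18 genes of class I presentation 7 were higher and 3 lower, and 1 was lower without AT3 replicate 2. The immunoproteasome subunit Psmb8 averaged 157 ± 25.4 CPM in 2208L and 26.4 ± 5.3 CPM in AT3, while H2-K1 averaged 84.9 ± 15.5 CPM in 2208L and 204 ± 42.6 CPM in AT3 (SD, n = 3 each). H2-K1 is polymorphic between the strains, and its introns are described below.

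Of 27 macrophage and monocyte genes 3 were higher and 7 lower, of 21 neutrophil genes 2 higher and 3 lower, of 12 T cell genes 1 higher, and of 11 NK and cytotoxic genes 1 higher and 4 lower. Without 2208L replicate 2, 15 macrophage and monocyte genes and 6 neutrophil genes were lower. Without replicate 3 of 2208L or of AT3, 2 NK and cytotoxic genes were lower. The T cell genes summed to 90.2, 50.9 and 46.6 CPM in 2208L, against 9.52, 50.7 and 4.42 CPM in AT3. Without AT3 replicate 2 the median log2 fold change of the T cell genes was 2.24, against 0.43 with it, and 2 were higher. The 2 higher neutrophil genes were Lcn2 and Ltf, which secretory epithelium also makes, and S100a8 averaged 42.2 ± 5.95 CPM in 2208L and 68.3 ± 29.4 CPM in AT3 (adjusted p = 0.175). Adgre1, the macrophage marker F4/80, averaged 43.7 ± 38.3 CPM in 2208L and 59.3 ± 24.2 CPM in AT3 (adjusted p = 0.551). Among 33 chemokines and colony-stimulating factors 6 were higher and 9 lower, and 3 were higher without the muscle and B cell libraries. Ccl2, which attracts monocytes, had 5.04, 17.4 and 5.33 CPM in the 2208L libraries, against 99.6, 110.1 and 282 CPM in the AT3 libraries. Csf1, the macrophage growth factor, had 18.8, 28.3 and 17.2 CPM in the 2208L libraries, against 87.4, 86 and 100.3 CPM in the AT3 libraries. Both fell in 2208L without overlap (adjusted p = 1.69e-05 and adjusted p = 1.05e-06). Of 18 skeletal muscle genes 13 were higher, but none was called higher without 2208L replicate 1, and 0 or 1 without any 1 of the AT3 replicates.

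**Figure D2:**
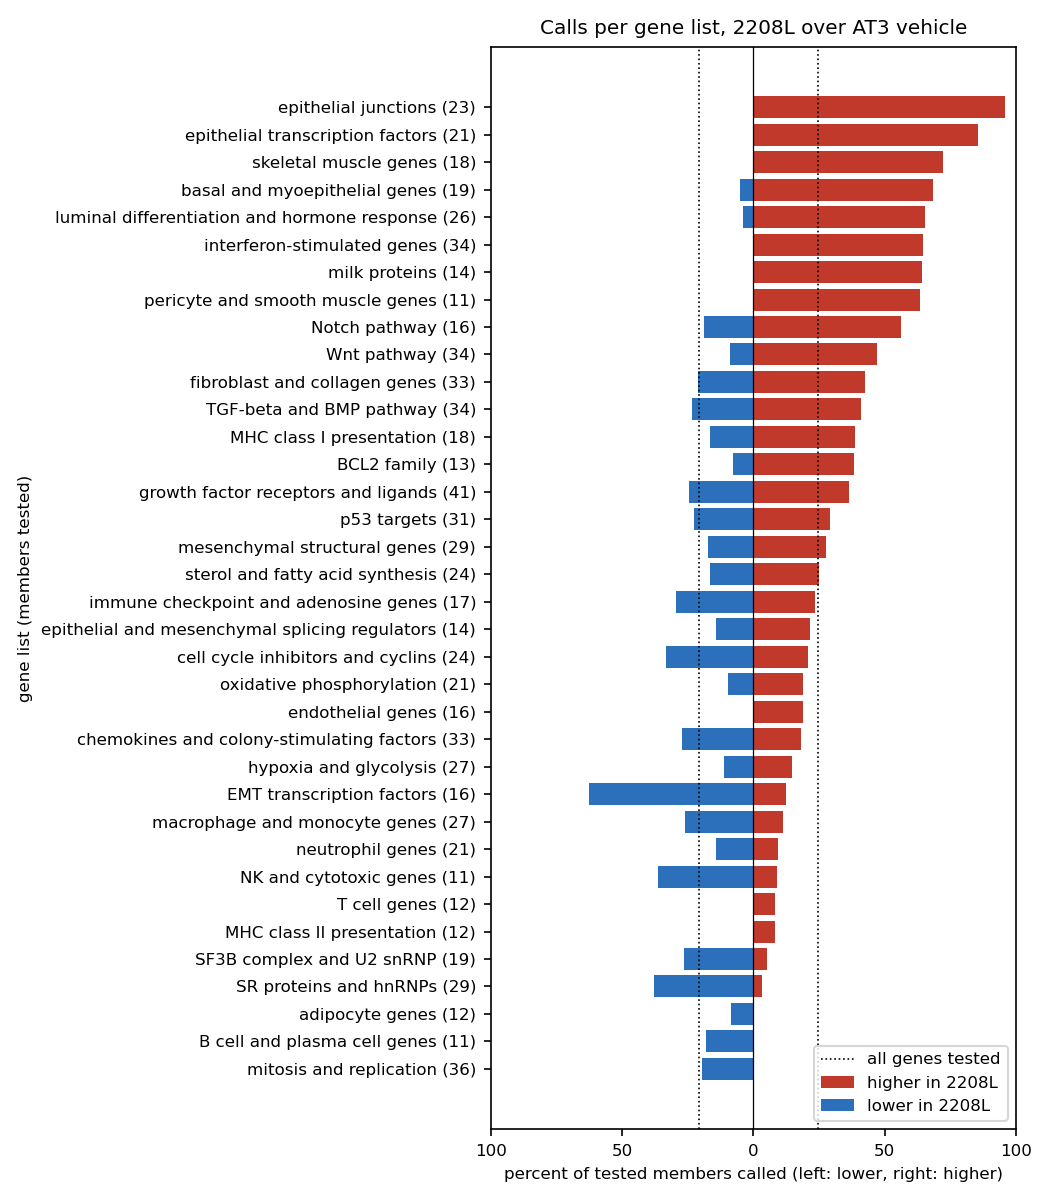
Percent of each list's tested members called higher (right, red) or lower (left, blue) in 2208L, for lists with at least 10 members tested, with the shares of all genes as dotted lines (24.5% and 20.7%). Epithelial junction genes reach 95.7% higher, and transition factors reach 62.5% lower.

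Calls among SR protein and hnRNP genes were mostly lower, while the SF3B and U2 snRNP list lay near the lower share of all genes. Of 29 SR protein and hnRNP genes 11 were lower (37.9%, against 20.7% of all genes) and 1, Srsf9, higher. Srsf5 averaged 112 ± 19.4 CPM in 2208L and 262 ± 35.5 CPM in AT3 and Hnrnph1 350.4 ± 12.4 CPM in 2208L and 709.7 ± 85 CPM in AT3 (SD, n = 3 each), log2 fold changes of -1.23 and -1.02. Of 19 genes of the SF3B complex and U2 snRNP 5 were lower (26.3%) and 1, Sf3b4, higher, and 2 were lower without AT3 replicate 3. Sf3b1, the target of H3B-8800, averaged 484 ± 30.7 CPM in 2208L and 503 ± 22.7 CPM in AT3 and was not called (adjusted p = 0.823). Mcl1, an antiapoptotic BCL2 family member, averaged 65.3 ± 4.66 CPM in 2208L and 41.9 ± 1.7 CPM in AT3 and was higher (adjusted p = 0.000486).

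The 15 largest rises by the naming rule were Atp6v1c2, Cftr, Col9a1, Csn1s1, Dsp, Duox1, Duoxa1, Esrp1, Fam150b, Fgg, Igfbp2, Ptprz1, Sez6, Tfap2c and Wfdc18. Col9a1, a cartilage collagen chain, had 863, 1219.5 and 1839 CPM in the 2208L libraries, against 0, 0 and 0 CPM in the AT3 libraries. Fgg, the fibrinogen gamma chain, had 466, 469 and 574 CPM in the 2208L libraries, against 0, 0 and 0 CPM in the AT3 libraries. Both were at 0 in AT3, and at least 15242-fold and 5861-fold higher in 2208L. Duox1, a hydrogen peroxide-making oxidase, and its maturation factor Duoxa1 rose together (106 CPM in 2208L, 0 CPM in AT3; 128 CPM in 2208L, 0 CPM in AT3).

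The 15 largest falls were Ap3b2, Enthd1, Fat2, Gpr149, Nptx1, Nxf3, Pax6, Rhox2g, Rhox2h, Rhox5, Sema3e, Sgk2, Slc9b1, Trpa1 and Xlr3c. 5 of them lie on the X chromosome. Rhox5, a homeobox gene of the reproductive X-linked cluster, had 1.01, 0.588 and 0.101 CPM in the 2208L libraries, against 439, 394 and 542 CPM in the AT3 libraries. Rhox2h had 0.101, 0 and 0 CPM in the 2208L libraries, against 110.3, 105 and 147 CPM in the AT3 libraries. Xlr3c, another X-linked gene family member, had 0, 0 and 0 CPM in the 2208L libraries, against 45.5, 54.4 and 39.8 CPM in the AT3 libraries. Each was high in all 3 AT3 libraries and at or near 0 in every 2208L library. Reads of Rhox2 and Xlr3 copies may be split between near-identical genes, so values of single copies are uncertain. Nptx1, a neuronal pentraxin, was at least 495-fold lower.

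A run of neighbouring genes on chromosome 6 was high in 2208L. It was picked after its values were seen. Of 15 tested genes from Tes to Fam3c (chr6:17065313-22355995, mm10, outer bounds of the listed introns) 12 were higher, 1 lower and 2 not called. Fam3c was the last tested gene of the window examined, so the extent of the run beyond it was not tested. Met had 4030.4, 3757 and 3981 CPM in the 2208L libraries, against 148, 115 and 99.2 CPM in the AT3 libraries. Capza2, an actin capping subunit, had 10917, 10087 and 11565 CPM in the 2208L libraries, against 383, 345 and 408 CPM in the AT3 libraries. Tes had 8071, 5824 and 6692 CPM in the 2208L libraries, against 186, 154 and 218 CPM in the AT3 libraries, and Lsm8 had 4742, 3307 and 4145 CPM in the 2208L libraries, against 105, 107 and 116 CPM in the AT3 libraries. Folds were 32.6 for Met, 28.7 for Capza2, 37 for Tes and 37.1 for Lsm8, with no overlap (log2 fold change 5.02 ± 0.34 SE, adjusted p = 1.3e-10 for Met). Cftr, the chloride channel, had 238, 223 and 269.9 CPM in the 2208L libraries, against 0, 0 and 0 CPM in the AT3 libraries. Cav1, caveolin-1, lies inside the run and was 4.93-fold lower, and Wnt2 and Cped1 were not called. Of the tested genes before the run, the nearest, Tfec, averaged 2.08 ± 2.56 CPM in 2208L and 4.56 ± 1.95 CPM in AT3 and was not called (adjusted p = 0.162), and the next, Mdfic, averaged 11.2 ± 3.76 CPM in 2208L and 20.7 ± 1.77 CPM in AT3 and was lower. Met averaged 38.5 CPM in PyMT-M vehicle tumors and 93.5 CPM in T11 vehicle tumors, and all 12 genes were also higher in 2208L under H3B-8800. Among the 12 genes Tspan12 alone averaged more in PyMT-M vehicle tumors than in 2208L (100 against 68.7 CPM). DNA copy number was not measured in these files.

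**Figure D3:**
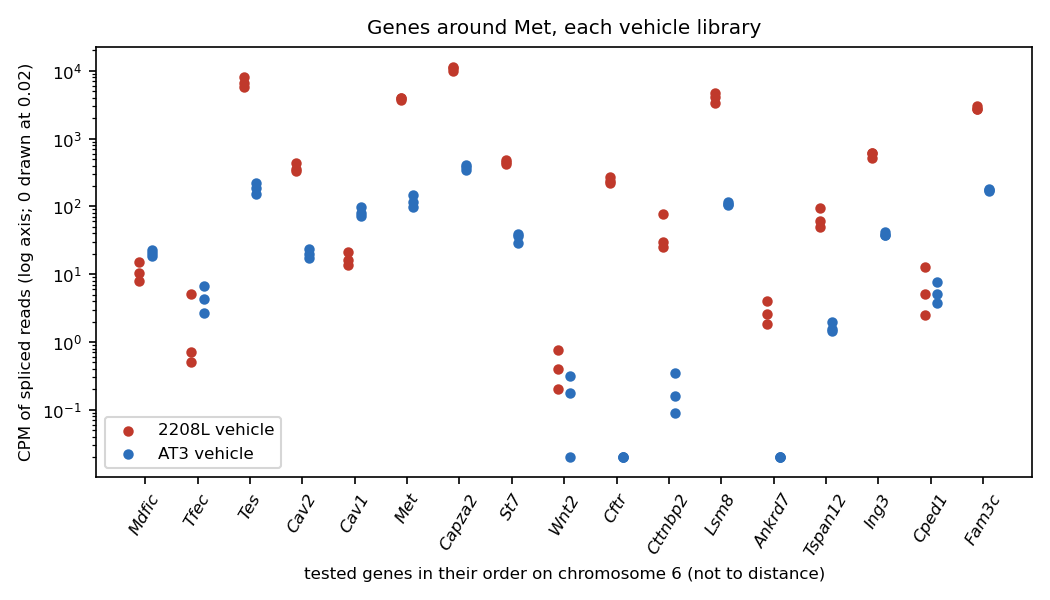
CPM of spliced reads (log axis) of tested genes around Met in chromosome order, each point a library, 2208L red at left and AT3 blue at right of each gene. From Tes to Fam3c, 12 genes are higher in every 2208L library, while Cav1 is lower.

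Calls were uneven between chromosomes. On chromosome 14, 49.1% of 444 genes were lower and 13.3% higher in 2208L, and on chromosome 12, 45.4% of 425 were lower and 19.1% higher. Chromosome 8 had 33.7% lower and 15.8% higher. Chromosome 7 leaned the other way, with 34.7% of 988 genes higher and 7.79% lower. So did chromosome 18, with 34.2% of 316 higher and 13.6% lower, and chromosome 5, with 29.6% of 821 higher and 12.8% lower. Under H3B-8800, in other libraries of the same models, lower shares were 41.7% for chromosome 14, 39.5% for chromosome 12 and 36.6% for chromosome 8. Chromosome 7 then had 25.7% higher and 11.4% lower, against 23.6% and 22.9% of all genes, so its higher share lay near that of all genes. Chromosome 18 kept 32.6% higher and 13% lower, and chromosome 5 kept 29.1% higher and 16.9% lower.

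Some genes were sorted by host strain across all models. Over all 25 libraries, 116 genes (0.892%) lay higher in all 12 Balb/c libraries than in all 13 C57BL/6 libraries, and 122 (0.938%) lay lower. Of these 238 genes 219 were called here, which the selection favours, since it required that the 2208L and AT3 libraries not overlap. An effect of strain variants on read alignment was not tested. The 10 most separated were C4a, Cdkn2a, Cftr, Gbp2b, H2-Ea-ps, Hal, Ifi202b, Rpl21, Tnnt2 and Vill. Models of the same strain could still differ: Cftr averaged 244 CPM in 2208L and 0.596 CPM in T11, both in Balb/c. Vill averaged 4.19 CPM in AT3 and 145 CPM in PyMT-M, and Cdkn2a 0.0601 CPM in AT3 and 22.5 CPM in PyMT-M, both in C57BL/6. H2-Ea-ps, the class II gene that C57BL/6 mice do not transcribe, had 88.2, 82.3 and 57.5 CPM in the 2208L libraries, against 0, 0 and 0 CPM in the AT3 libraries. Rpl21, a ribosomal protein gene with many processed copies, had 5.84, 4.7 and 5.73 CPM in the 2208L libraries, against 574, 616 and 963 CPM in the AT3 libraries. The first is a known strain difference and was at 0 in every AT3 vehicle library; the second is uncertain, since reads may be assigned to a copy. Nnt, which carries a deletion of exons in some C57BL/6 substrains, had 65.5, 59 and 47.3 CPM in the 2208L libraries, against 97.8, 86.7 and 91.6 CPM in the AT3 libraries. Spliced reads crossed all 15 of its listed introns in AT3, from 29 to 151 a library, and in 2208L from 13 to 101. No intron is listed from chr13:119374629 to 119381863, between introns 7 and 6. Reads over listed introns cannot show exons that the list lacks, so presence of the deletion was not tested.

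H3B-8800 libraries gave the model difference a second time with no library shared. There 3062 genes (23.6%) were higher and 2974 (22.9%) lower in 2208L, 6036 or 46.4% in all. In the same direction in both treatments were 4275 genes, 72.7% of the vehicle calls and 70.8% of the H3B-8800 calls, and 9 genes were called in opposite directions. The same 22 epithelial junction genes were higher in both treatments, and 18 epithelial transcription factors were higher in each treatment. The test of the difference between treatments called 2 genes (0.0154%), with 1904 at an unadjusted p under 0.05.

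**Figure D4:**
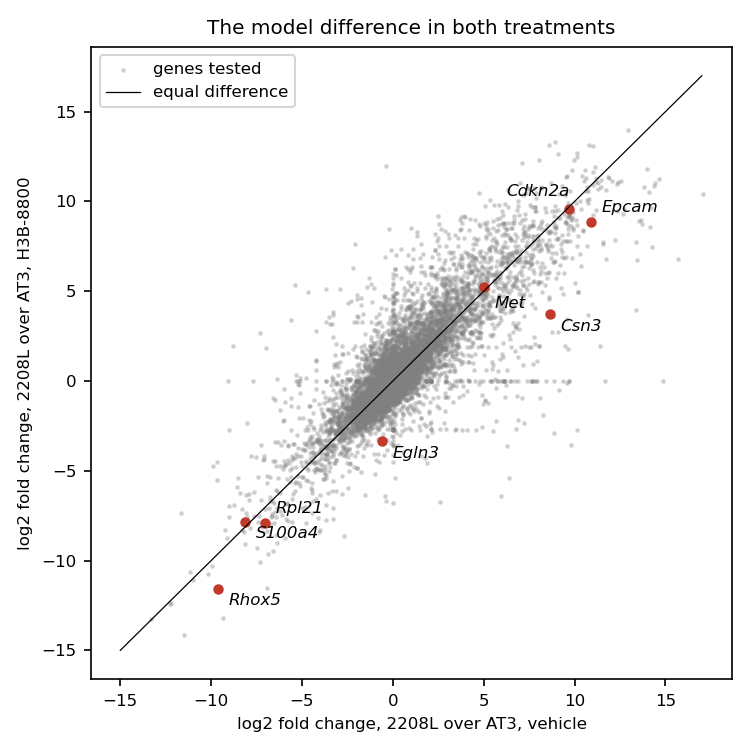
Fitted log2 fold change of 2208L over AT3 with vehicle (x) and with H3B-8800 (y), each point a gene and the line equal values; the fitted value of a gene at 0 in a group is not a bound. Of the labelled genes Met, Cdkn2a, S100a4 and Rpl21 lie near the line, and Csn3 and Egln3 lie below it.

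Over all reads, the share inside introns overlapped between the models. Such reads made up 7.90%, 10.1% and 10.4% of intron-overlapping reads in 2208L, against 9.63%, 15.9% and 10.1% in AT3 (difference -2.40 percentage points, exact permutation test, 2-sided p = 0.6, n = 3 each, smallest p possible 0.1). AT3 replicate 2 was the highest. As a mean of the shares of 7214 genes it was 11.4%, 14.5% and 14.8% in 2208L, against 14.99%, 23.1% and 16.3% in AT3, without overlap (difference -4.55 percentage points, exact permutation test, 2-sided p = 0.1, n = 3 each, the smallest p possible). Relative to each gene's spliced reads, 191 introns (0.367%) were higher and 1318 (2.53%) lower in 2208L, 1509 of 52042 or 2.9% in all. Of all introns tested 73.5% had a fitted change below 0, with a median log2 fold change of -0.69. The count of called introns depends on single libraries: it was 409 without AT3 replicate 2, 373 without 2208L replicate 1, 738 without 2208L replicate 3 and 215 without the muscle and B cell libraries. Of the 1509, 678 hold no annotated exon.

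The single introns named here were chosen among those with no annotated exon inside. Intron 7 of Dgkd, a diacylglycerol kinase, held 106, 173 and 195 reads in the 2208L libraries and none in any AT3 library (adjusted p = 5.63e-05). Intron 14 of Atp2c1, a Golgi calcium pump, held 52, 57 and 59 reads in 2208L and none in AT3. Intron 1 of Tgfbr2, a TGF-beta receptor, held 0, 2 and 0 reads in 2208L, against 101, 94 and 34 in AT3 (adjusted p = 3.1e-06). Relative to the gene's spliced reads, other introns higher in 2208L were in Zc3h7a, Met, Wwp2, Arsb and Ctps2. Those lower were in Ddr2, Col3a1, Zranb3, Hgsnat, Sh3pxd2b, Daam1 and Diap3. The Met intron held 100, 125 and 84 reads in 2208L, beside 40011, 44739 and 39594 spliced reads of the gene. In AT3 it held none, beside 1861, 1310 and 1101. Ddr2 had 25, 89 and 26 spliced reads in 2208L, so the absence of its intron reads there rests on few reads. In T11 vehicle libraries, also of Balb/c hosts, intron 14 of Atp2c1 held 30 to 44 reads and intron 7 of Dgkd 0 to 2.

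Junction use differed at fewer sites, 94 higher (0.0977%) and 185 lower (0.192%), 279 of 96165 or 0.29% in all, in 158 genes. Intron 4 of H2-K1 was crossed by 7, 5 and 4 reads in 2208L, against 275, 384 and 321 in AT3 (log2 fold change -4.52 ± 0.16 SE, adjusted p = 1.4e-18). Intron 3 of Fgfr1op2 was crossed by 1, 3 and 2 reads in 2208L, against 237, 183 and 217 in AT3. Intron 4 of Ahcy had 4, 2 and 1 reads in 2208L, against 186, 153 and 194 in AT3. T11 vehicle libraries had 6 to 18, 6 to 14 and 6 to 8 reads over these introns, and PyMT-M vehicle libraries 851 to 1515, 194 to 293 and 77 to 126. Both models in Balb/c hosts were low over these junctions and both in C57BL/6 hosts high. The processing notes name mm10 as the only mouse build, and an effect of strain variants on alignment was not tested. Intron 5 of Rpl11 rose in 2208L, with 1501, 1091 and 1201 reads against 141, 169 and 151 in AT3, and processed copies of ribosomal genes make this value uncertain. The other named junctions were in Arhgef10l, Epb4.1l4a, Nkain1, C920025E04Rik, Jade1 and Ift172 among those higher, and Acaca, 2410127L17Rik, Mettl13, Stk38l and C1s1 among those lower.

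Tns3, which encodes the focal adhesion protein tensin 3, held the most called junctions, 23 of 30. Introns 1 to 19 took 45.1%, 47.4% and 46.5% of its spliced reads in the 2208L libraries, against 10.1%, 3.84% and 5.07% in the AT3 libraries. The shares did not overlap, and reads began to be common from intron 20 on in AT3. The same share was 44.2% to 51.2% in PyMT-M vehicle tumors, also in C57BL/6 hosts, and 24.2% to 32.3% in T11 vehicle tumors. Under H3B-8800 it was 47.8% to 51.1% in 2208L, against 4.24% and 6.03% in AT3.

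**Figure D5:**
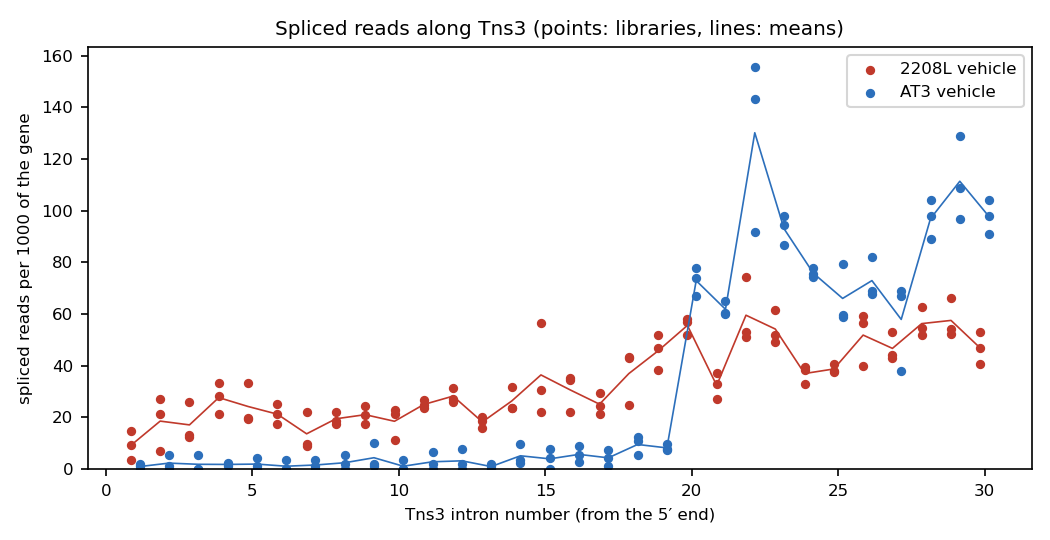
Spliced reads across each Tns3 intron per 1000 spliced reads of the gene, by intron number from the 5′ end, points for libraries and lines for means, 2208L red and AT3 blue. AT3 libraries stay near 0 up to intron 19 and have the higher mean from intron 20.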

How the data were processed

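The deposited tables list, per the file headers, whole-number read counts for 163337 introns of 17596 genes: reads inside each intron and reads overlapping it. Reads were aligned with HISAT2 2.0.4 (builds mm10 and hg38 named), per the submitters' processing notes; the counting tool is not given in the sources used here. Spliced reads were taken as overlapping minus inside reads and summed over a gene's introns, after 22 introns too short to use were left out. Single-exon genes are therefore not measured, and coverage of long transcripts weighs on the sums.

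Genes with at least 1 CPM in at least 2 libraries (13001) were tested with edgeR 4.0.16 (robust quasi-likelihood, TMM, 8 group means over all 25 libraries, Benjamini-Hochberg threshold 0.05) in R 4.3.3. Introns and junctions were fitted the same way with the gene's spliced reads as offset, on introns with a mean of at least 5 inside and 10 spliced reads, and junctions of genes with at least 3 introns. Folds of genes at 0 in a group use a floor of 3 reads over the group, and intervals cover counting error only. Introns holding a GENCODE M21 exon were marked (99.9% of introns matched). DESeq2 1.42.0 and limma 3.58.1 were alternatives.

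On simulated counts, 100% of 200 changed genes, 89.5% of introns and 94% of junctions were recovered; introns with 4-fold rises were recovered in 98% and with 4-fold falls in 81%. The pass mark was restricted to items with at least 20 expected reads in both groups after the first result fell short of it. The members and gene lists were chosen with earlier results of these data known. Named genes were the 15 largest rises and 15 largest falls among called genes that did not overlap, with a mean of at least 5 CPM in the higher group, plus preset genes, up to 4 called members of each list in each direction by p, and the 10 most strain-separated genes; predicted genes, pseudogenes and antigen receptor segments were left out of the first part. Named introns and junctions were the 8 largest each way, 1 per gene, with a mean of at least 20 reads in the higher group and no annotated exon inside, plus those of Nnt, Trp53 and Tns3. Other genes singled out in the text were chosen after their values were seen. Some results that the naming rule covers are not reported here.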

Additional observations from a re-analysis of the deposited data

Results flagged for a closer look

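In the main fit the difference between the models changed with treatment for 2 genes (edgeR quasi-likelihood test of the difference, Benjamini-Hochberg adjusted). Both calls depended on single libraries. No gene was called when any 1 of the 2208L H3B-8800 replicates or AT3 vehicle replicates was left out, or without 2208L vehicle replicate 3. Csn3, kappa-casein, had a change of -4.94 on the log2 scale (adjusted p = 0.0367). It had 121, 427 and 812 CPM in 2208L vehicle libraries, against 0.555, 2.01 and 0.811 CPM in AT3, and 66.7, 115 and 87.2 CPM in 2208L under H3B-8800, against 7.65 and 6.07 CPM in AT3. Egln3, a prolyl hydroxylase induced by hypoxia, had a change of -2.74 (adjusted p = 0.0367). It had 48.9, 54.2 and 102 CPM in 2208L vehicle libraries, against 103, 81.0 and 127 CPM in AT3, and 15.5, 11.9 and 11.4 CPM in 2208L under H3B-8800, against 118 and 143 CPM in AT3.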

How the results depend on the processing

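Over the alternatives the count of called genes ran from 4468 to 6309 with vehicle, and from 4424 to 6032 with H3B-8800. The count of genes whose model difference changed with treatment (2) was 14 without the T11 libraries and ran from 0 to 223 when 1 library was left out, with 203 without 2208L vehicle replicate 2 and 223 without AT3 H3B-8800 replicate 2. Called introns (1509) numbered 527 in a separate fit of only the introns with no annotated exon, and 3418 with DESeq2. They numbered 215 without the muscle and B cell libraries and ran from 373 to 1572 when 1 library was left out. Called junctions (279) numbered 175 without the muscle and B cell libraries and 214 to 235 when 1 library was left out. Leaving out the muscle and B cell libraries together was chosen after seeing the data. The intronic share difference ran from -3.53 to -0.379 percentage points when 1 library was left out, the last without AT3 replicate 2; the cause was not tested.

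Same-numbered 2208L and AT3 vehicle libraries did not deviate together (correlations -0.0714, 0.0117 and 0.133), so the numbers do not pair them. With a replicate block, 5949 genes were called with vehicle, 5971 with H3B-8800, 1400 introns and 283 junctions. Of 5865 recomputed values of named genes 5572 kept direction and side of the threshold, 248 lost the call, 43 gained one and 2 reversed. The 2 were Cdh5 (log2 fold change -1.26 without 2208L replicate 2, and up to 0.383 without other libraries) and Trp53 (0.446 with overlapping reads). A reversal was counted only where the sign changed and the gene was called in the main fit or in that alternative. Trp53 was not called in the main fit and was therefore called higher with overlapping reads. Of 186 recomputed intron values 29 lost the call, and of 151 junction values 8 did. A floor of 3 reads limits what can be said of genes at 0.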

Other observations

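Several lists had other counts under H3B-8800 than with vehicle. Of all genes, 23.6% were higher and 22.9% lower under H3B-8800, and 24.5% and 20.7% with vehicle. Of 27 macrophage and monocyte genes, 10 were higher and none lower in 2208L under H3B-8800, and 3 higher and 7 lower with vehicle, or 15 lower without 2208L vehicle replicate 2. Of 34 interferon-stimulated genes 32 were higher under H3B-8800 and 22 with vehicle. Of 12 class II presentation genes 7 were higher under H3B-8800 and 1 with vehicle, or 1 to 4 with vehicle over the alternatives. Their sum was 1412 CPM in AT3 vehicle replicate 2, against 647 and 646 CPM in the other AT3 vehicle libraries. Of 27 hypoxia and glycolysis genes 17 were lower under H3B-8800 and 3 with vehicle. The change with treatment was tested gene by gene only. Of these lists' genes and all others, the main fit called Csn3 and Egln3 alone.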
